A study of Homo sapiens with 8 samples.

Results

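The mitochondrial ribosomal protein (MRP) genes encode the proteins of the ribosome that works inside mitochondria. They were taken as the protein-coding genes of the GENCODE annotation whose symbol is MRPL or MRPS followed by a number and at most 1 letter, which gave 78 of 20033 nuclear protein-coding genes. Of these, 49 are named as large subunit genes (MRPL) and 29 as small subunit genes (MRPS), and they lie on 21 chromosomes. This rule uses symbols only, but the family was picked for description with earlier results of these data known. A gene was called bound when a ChIP-Seq peak fell, with at least 1 bp, between 1000 bp before and 500 bp after the transcription start site (TSS) of any of its transcripts on hg38.

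The peaks came from HA ChIP-Seq of PHF20 and PHF20L1 in U2OS, a human osteosarcoma cell line that overexpressed either protein with a triple HA peptide tag. PHF20 carried the tag at the N terminus (N-3xHA), with 2 ChIP libraries and 1 input library. PHF20L1 had 1 ChIP library with the tag at the N terminus (N-3xHA) and 2 with the tag at the C terminus (C-3xHA), and 1 input library of each kind. All 8 libraries came from cells infected with lentiviral constructs and selected as populations, and the endogenous genes were not removed. Each of 4147 PHF20 peaks and 723 PHF20L1 peaks is given by its first and last base, in 1 final list per protein that the authors made from their replicates. The lists hold no read count, height or score, so the depth behind a peak is unknown from them, no spread between replicates can be given and no test was made. A promoter outside a list was not called at the authors' thresholds, and absence from a list is not absence of binding.

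PHF20 and PHF20L1 are related readers of methylated lysine and are alternative subunits of the NSL complex, a histone acetyltransferase complex whose catalytic subunit is KAT8 and which binds promoters of housekeeping genes. The mitochondrial ribosome translates the few proteins encoded by mitochondrial DNA, which are core subunits of the oxidative phosphorylation complexes. Its RNAs come from mitochondrial DNA, but all its proteins are encoded in the nucleus, translated in the cytosol and imported, so that their promoters are ordinary nuclear promoters. Some of these proteins descend from bacterial ribosomal proteins, and the others were added to the ribosome during the evolution of mitochondria.

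Promoters of MRP genes from the 3 classes described in the following paragraphs are shown first, because the classes differed in how many promoters held a short ETS sequence. Each run reads 5′ to 3′ on the sense strand of the gene, from 250 bp upstream of the representative TSS to 50 bp of transcribed sequence, on hg38. Capitals mark the ETS sequence CCGGAAG, the E-box CACGTG, the NRF1 sequence CGCATGCGC and the YY1 sequence AAGATGGCG, on either strand. The first set has a peak of both proteins: MRPS18C (chr4:83455808-83456107, plus strand), MRPL9 (chr1:151763447-151763746, minus strand) and MRPS23 (chr17:57849995-57850294, minus strand) had the widest PHF20 peaks of that class among those that could be shown.
MRPS18C: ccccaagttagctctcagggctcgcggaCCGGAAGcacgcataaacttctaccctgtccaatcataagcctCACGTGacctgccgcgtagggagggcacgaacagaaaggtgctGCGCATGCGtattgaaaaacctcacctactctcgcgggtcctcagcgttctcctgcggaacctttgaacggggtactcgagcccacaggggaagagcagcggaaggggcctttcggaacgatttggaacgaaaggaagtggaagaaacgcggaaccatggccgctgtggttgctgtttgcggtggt
MRPL9: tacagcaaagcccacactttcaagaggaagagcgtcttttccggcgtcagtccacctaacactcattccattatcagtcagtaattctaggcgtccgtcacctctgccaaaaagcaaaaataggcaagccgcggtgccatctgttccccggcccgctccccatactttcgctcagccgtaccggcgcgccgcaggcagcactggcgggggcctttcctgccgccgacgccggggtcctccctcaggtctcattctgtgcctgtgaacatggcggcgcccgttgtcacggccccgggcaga
MRPS23: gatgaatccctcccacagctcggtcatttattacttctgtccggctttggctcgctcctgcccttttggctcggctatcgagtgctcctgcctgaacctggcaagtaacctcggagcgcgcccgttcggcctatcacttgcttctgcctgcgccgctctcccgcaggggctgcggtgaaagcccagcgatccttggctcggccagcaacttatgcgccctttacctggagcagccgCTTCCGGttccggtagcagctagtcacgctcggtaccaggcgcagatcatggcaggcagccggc
MRPL27 (chr17:50373135-50373434, minus strand) and MRPS34 (chr16:1773085-1773384, minus strand) also had peaks of both proteins. They were added after their sequences had been seen, because they hold 2 and 3 copies of the ETS sequence.
MRPL27: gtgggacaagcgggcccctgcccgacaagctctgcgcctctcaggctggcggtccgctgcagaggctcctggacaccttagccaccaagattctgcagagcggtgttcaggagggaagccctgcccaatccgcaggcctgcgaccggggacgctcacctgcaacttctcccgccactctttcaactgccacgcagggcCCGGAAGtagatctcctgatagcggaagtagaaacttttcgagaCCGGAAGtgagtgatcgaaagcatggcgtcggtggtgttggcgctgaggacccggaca
MRPS34: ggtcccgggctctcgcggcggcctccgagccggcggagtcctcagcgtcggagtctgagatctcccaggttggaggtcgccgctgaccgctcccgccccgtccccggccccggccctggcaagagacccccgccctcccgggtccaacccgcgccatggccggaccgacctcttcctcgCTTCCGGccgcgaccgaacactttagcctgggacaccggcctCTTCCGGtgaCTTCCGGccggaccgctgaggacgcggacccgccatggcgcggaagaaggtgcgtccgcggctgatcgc
MRPS7 (chr17:75261629-75261928, plus strand) and MRPL20 (chr1:1407244-1407543, minus strand) had the widest peaks of the class with a PHF20 peak only.
MRPS7: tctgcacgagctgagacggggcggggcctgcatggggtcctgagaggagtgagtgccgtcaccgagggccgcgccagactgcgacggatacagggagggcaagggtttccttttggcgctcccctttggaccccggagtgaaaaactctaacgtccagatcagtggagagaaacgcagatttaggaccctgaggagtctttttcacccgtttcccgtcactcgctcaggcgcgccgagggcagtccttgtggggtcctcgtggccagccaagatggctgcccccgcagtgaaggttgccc
MRPL20: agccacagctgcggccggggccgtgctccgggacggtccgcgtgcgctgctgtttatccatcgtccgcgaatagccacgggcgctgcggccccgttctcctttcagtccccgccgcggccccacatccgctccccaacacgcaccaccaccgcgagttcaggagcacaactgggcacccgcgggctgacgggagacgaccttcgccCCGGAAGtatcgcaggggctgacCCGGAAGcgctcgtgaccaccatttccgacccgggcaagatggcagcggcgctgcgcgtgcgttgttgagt
MRPS18B (chr6:30617590-30617889, plus strand) and MRPL45 (chr17:38296918-38297217, plus strand) had no peak and lay farthest from any PHF20 peak.
MRPS18B: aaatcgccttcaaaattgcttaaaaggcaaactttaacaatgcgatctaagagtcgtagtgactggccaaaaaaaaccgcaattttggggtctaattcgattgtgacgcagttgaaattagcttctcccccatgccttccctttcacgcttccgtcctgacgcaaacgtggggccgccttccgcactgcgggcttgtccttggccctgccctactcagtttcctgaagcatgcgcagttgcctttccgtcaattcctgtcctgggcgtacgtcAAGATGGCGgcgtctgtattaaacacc
MRPL45: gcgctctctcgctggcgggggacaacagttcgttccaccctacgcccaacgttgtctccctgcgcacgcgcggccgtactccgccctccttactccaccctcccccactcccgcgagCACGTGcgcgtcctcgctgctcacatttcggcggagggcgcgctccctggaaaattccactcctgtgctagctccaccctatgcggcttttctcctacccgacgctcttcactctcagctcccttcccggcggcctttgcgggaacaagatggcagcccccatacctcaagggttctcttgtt
The ETS sequence occurs in MRPS18C, MRPS23, MRPL27, MRPS34 and MRPL20, close to the TSS in all of them except MRPS18C, and in none of MRPL9, MRPS7, MRPS18B and MRPL45. MRPS18C also holds an E-box and an NRF1 sequence, MRPL45 an E-box and MRPS18B a YY1 sequence.

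PHF20 peaks were found at the promoters of 53 of the 78 MRP genes (67.9%), against 20.7% of all protein-coding genes. Here and below, all protein-coding genes were taken whether or not U2OS cells express them. The paper reports that the regions bound by either protein are enriched for highly expressed genes. No comparison with genes of like expression was made, so the part of expression in these differences was not tested. PHF20L1 peaks were found at 18 MRP genes (23.1%), against 3.82% of all protein-coding genes. All of these 18 genes also had a PHF20 peak, so that 23.1% of MRP genes and 3.73% of all genes had peaks of both proteins. A further 35 MRP genes had a PHF20 peak only, 25 genes (32.1%) had no peak of either protein, and none had a PHF20L1 peak only. Among genes with a PHF20 peak, PHF20L1 was found at 18 of 53 MRP genes (34.0%) and at 18.0% of all genes. In the plot of bound shares, the MRP genes and the other genes of mitochondrial translation and transcription stand above the cytosolic ribosomal protein genes, the NDUF genes and all genes for both proteins.

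**Figure D1:**
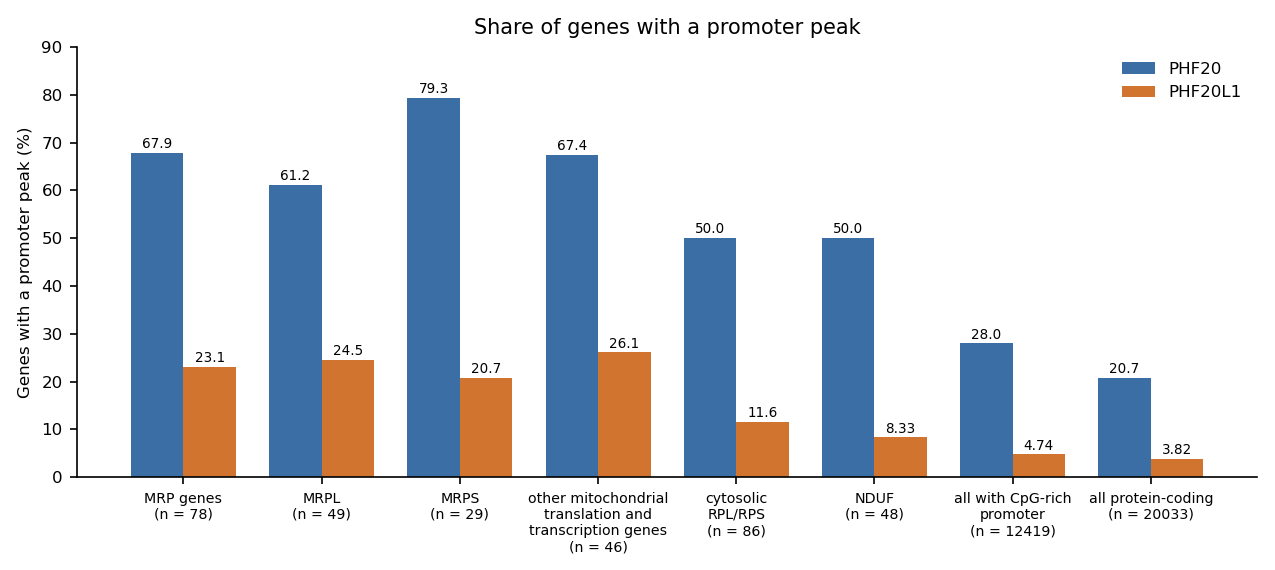
Share of genes (%) with a promoter peak of PHF20 (blue) and of PHF20L1 (orange) in MRP genes, their MRPL and MRPS parts, other gene groups and all protein-coding genes, with the number of genes under each pair of bars. PHF20 peaks were at 67.9% of MRP genes and at 20.7% of all protein-coding genes; each bar is a count from 1 peak list, so there is no error bar.

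Both subunits were represented in every class. Among the large subunit genes 30 of 49 (61.2%) had a PHF20 peak and 12 (24.5%) a PHF20L1 peak, and among the small subunit genes 23 of 29 (79.3%) and 6 (20.7%). MRPS18A and MRPS30 keep a small subunit symbol although their products are part of the large subunit, and MRPS36 is now assigned to the oxoglutarate dehydrogenase complex rather than to the ribosome. By product, PHF20 peaks were at 32 of 51 large subunit genes (62.7%) and 21 of 26 small subunit genes (80.8%). Genes listed as having a bacterial ribosomal homologue had a PHF20 peak in 34 of 46 cases (73.9%) and a PHF20L1 peak in 9 (19.6%). The genes not so listed had a PHF20 peak in 19 of 32 cases (59.4%) and a PHF20L1 peak in 9 (28.1%). The list held MRPS18C but not the related MRPS18A and MRPS18B, so these counts depend on it.

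MRP promoters are rich in CpG, which is a property of many bound promoters. By a GC content of at least 55% and a CpG observed/expected ratio of at least 0.6 over the 300 bp shown above, 63 MRP genes (80.8%) had a CpG-rich promoter, against 62.0% of all protein-coding genes. Among all genes with such a promoter, 28.0% had a PHF20 peak, 4.74% a PHF20L1 peak and 4.64% both. Of the 63 MRP genes, 41 (65.1%) had a PHF20 peak and 13 (20.6%) both peaks. Within the MRP genes, the CpG-rich share was 72.2% with both peaks, 80% with a PHF20 peak only and 88.0% with no peak. Over all protein-coding genes the shares in these classes were 77.1%, 85.4% and 56.3%, so the order was not the same. The median GC content of MRP promoters, 59.7%, was below the 63.7% of all protein-coding promoters. Their median CpG observed/expected ratio was higher, 0.886 against 0.775.

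The large subunit genes with peaks of both proteins were MRPL1, MRPL4, MRPL9, MRPL13, MRPL19, MRPL27, MRPL30, MRPL39, MRPL40, MRPL48, MRPL53 and MRPL58. MRPL1, the protein of the mobile L1 stalk, had a PHF20 peak of 1156 bp at chr4:77862092-77863247 and a PHF20L1 peak of 267 bp at chr4:77862531-77862797, which lay wholly upstream of its TSS. MRPL4, which lines the exit tunnel, had peaks of 954 bp (chr19:10251779-10252732) and 511 bp (chr19:10251971-10252481), both centred within 41 bp of the TSS. MRPL9 had a PHF20 peak of 1425 bp (chr1:151762866-151764290) that also covered the start of OAZ3, and a PHF20L1 peak of 248 bp (chr1:151763281-151763528) centred 92 bp downstream of the MRPL9 TSS. At MRPL13, the PHF20 peak of 1543 bp (chr8:120444436-120445978) was the widest of any MRP gene, while the PHF20L1 peak there was 391 bp wide (chr8:120445083-120445473). MRPL19 had the narrowest PHF20L1 peak among MRP genes, 211 bp (chr2:75646518-75646728), within a PHF20 peak of 1214 bp (chr2:75646200-75647413).

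MRPL27, a homologue of the bacterial protein whose tail reaches the peptidyl transferase centre, had peaks of 1148 bp (chr17:50372786-50373933) and 492 bp (chr17:50373050-50373541). Both were centred nearer to the start of EME1, whose TSS lies 45 bp away on the opposite strand. MRPL30, next to MITD1, had peaks of 1045 bp (chr2:99180584-99181628) and 489 bp (chr2:99180840-99181328). The remaining large subunit genes of this class encode proteins that have no counterpart in the bacterial ribosome, several of which sit in the central protuberance. MRPL39 had peaks of 798 bp (chr21:25606964-25607761) and 351 bp (chr21:25607285-25607635). MRPL40, whose promoter faces that of the histone chaperone gene HIRA, had peaks of 1315 bp (chr22:19431647-19432961) and 293 bp (chr22:19432364-19432656). Their centres were 206 bp apart, the largest distance among MRP genes. MRPL48 had peaks of 1181 bp (chr11:73787371-73788551) and 322 bp (chr11:73787789-73788110), and MRPL53 of 875 bp (chr2:74472271-74473145) and 442 bp (chr2:74472513-74472954). MRPL58, also known as ICT1, is a peptidyl-tRNA hydrolase that rescues stalled mitochondrial ribosomes. It had peaks of 1214 bp (chr17:75012079-75013292) and 439 bp (chr17:75012437-75012875), centred 15 bp downstream and 14 bp upstream of its TSS.

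The small subunit genes with both peaks, by symbol, were MRPS15, MRPS18C, MRPS23, MRPS30, MRPS31 and MRPS34. MRPS15 had peaks of 879 bp (chr1:36463778-36464656) and 283 bp (chr1:36464115-36464397). MRPS18C, which shares its promoter region with the DNA helicase gene HELQ, had peaks of 1466 bp (chr4:83455317-83456782) and 269 bp (chr4:83455930-83456198), centred 9 bp upstream and 6 bp downstream of its TSS. MRPS23 had the widest PHF20L1 peak among MRP genes, 667 bp (chr17:57849696-57850362), within a PHF20 peak of 1384 bp (chr17:57849519-57850902). MRPS30, a protein of the large subunit despite its symbol, had peaks of 1051 bp (chr5:44808593-44809643) and 217 bp (chr5:44808997-44809213), the second wholly downstream of the TSS. MRPS31 had peaks of 749 bp (chr13:40770769-40771517) and 225 bp (chr13:40771093-40771317). At MRPS34 the PHF20 peak was 731 bp wide (chr16:1772775-1773505) and the PHF20L1 peak 568 bp (chr16:1773024-1773591), with 482 bp in common.

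At 17 of these 18 genes the PHF20L1 peak lay entirely inside the PHF20 peak. MRPS34 was the exception, with a PHF20L1 peak that reached farther upstream, towards EME2. The PHF20L1 peak had a median of 31.1% of the width of the PHF20 peak, from 17.4% at MRPL19 and MRPL9 to 77.7% at MRPS34. The centres were a median of 50.5 bp apart. Along the gene, the PHF20L1 centre lay upstream of the PHF20 centre at 13 genes and downstream at 5. These measures were not taken over all genes with both peaks, so none is shown to be particular to MRP genes. PHF20L1 peaks were also the shorter ones over all protein-coding promoters, with a median of 323 bp. The PHF20 peaks at all protein-coding genes with both had a median of 946 bp. The map of peaks shows these short PHF20L1 intervals within the PHF20 intervals.

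**Figure D2:**
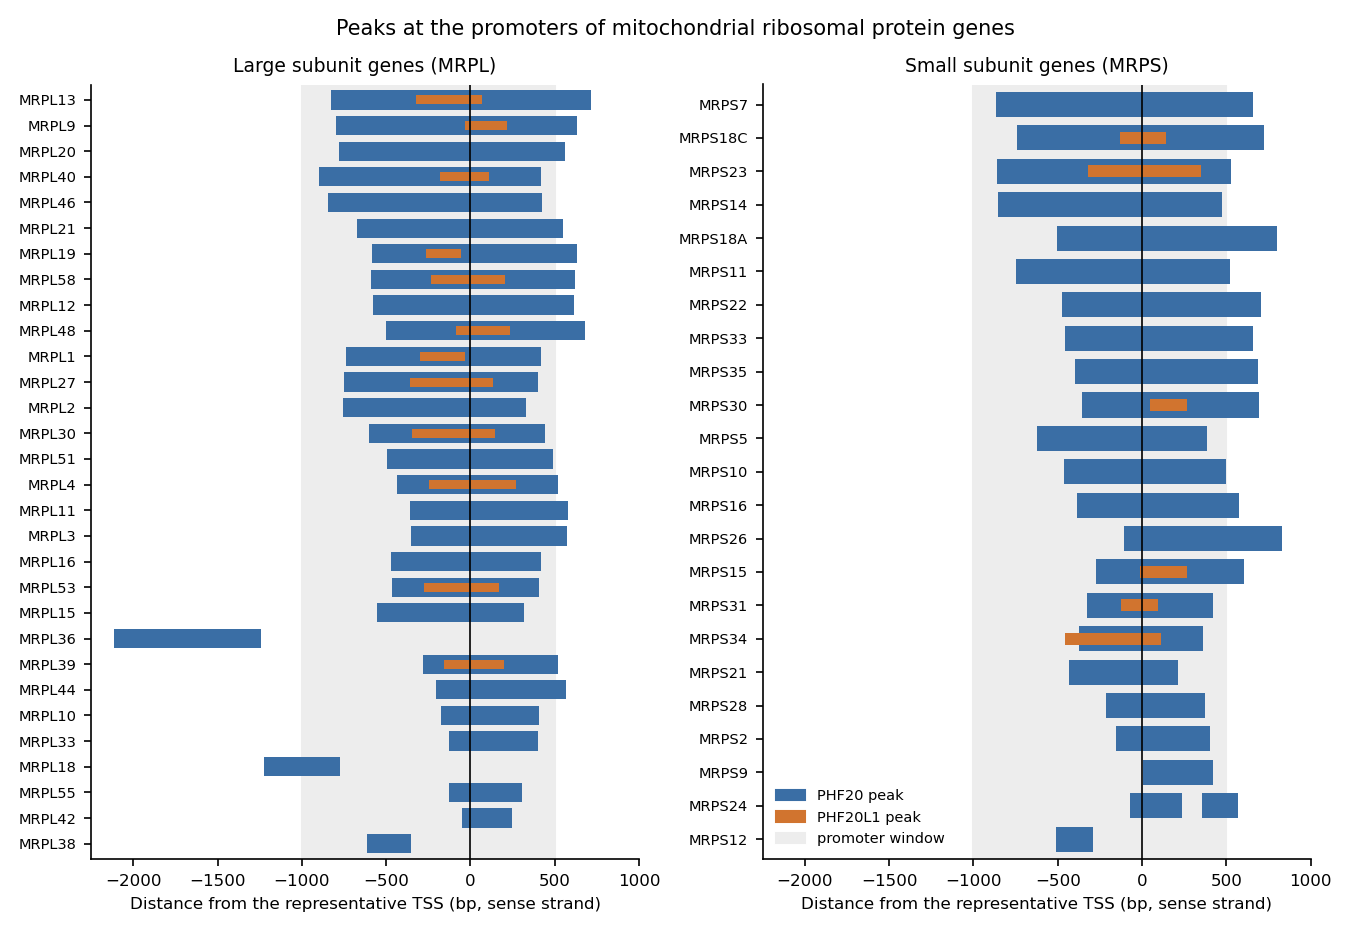
Position of each PHF20 peak (blue) and PHF20L1 peak (orange) along the sense strand, in bp from the representative TSS (black line), for the 30 MRPL and 23 MRPS genes with a peak, ordered by PHF20 peak width. Grey marks the promoter window of the representative TSS; nearly all peaks span the TSS, and the peak at MRPL36 lies outside the grey window because it was reached from another TSS.

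The 18 large subunit genes with a PHF20 peak only were MRPL2, MRPL3, MRPL10, MRPL11, MRPL12, MRPL15, MRPL16, MRPL18, MRPL20, MRPL21, MRPL33, MRPL36, MRPL38, MRPL42, MRPL44, MRPL46, MRPL51 and MRPL55. The 17 small subunit genes by symbol were MRPS2, MRPS5, MRPS7, MRPS9, MRPS10, MRPS11, MRPS12, MRPS14, MRPS16, MRPS18A, MRPS21, MRPS22, MRPS24, MRPS26, MRPS28, MRPS33 and MRPS35. The widest peak was at MRPS7, a protein of the head of the small subunit, with 1524 bp (chr17:75261012-75262535). MRPL20 followed with 1337 bp (chr1:1406734-1408070), then MRPS14 with 1330 bp (chr1:175022953-175024282) and MRPS18A with 1308 bp (chr6:43686990-43688297). MRPL46 and MRPS11 are transcribed away from each other, with TSSs 320 bp apart, and shared a single peak of 1271 bp (chr15:88466961-88468231). Thus 1 PHF20 interval covered the start of a large subunit and of a small subunit gene.

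The narrowest peaks of this class were near the smallest width in the list, 200 bp. MRPS24 had a pair of peaks, of 213 bp (chr7:43868948-43869160) and 307 bp (chr7:43869281-43869587), and was the only MRP gene with more than 1 PHF20 peak. MRPS12, a homologue of the bacterial decoding protein S12, had a peak of 219 bp (chr19:38930434-38930652). MRPL38 had 259 bp (chr17:75905236-75905494) and MRPL42 had 294 bp (chr12:93467466-93467759). Between these extremes, the other peaks of the class ranged from 415 bp at MRPS9 to 1224 bp at MRPL21. The genes of the stalk that recruits translation factors had PHF20 peaks of 585 bp (MRPL10), 934 bp (MRPL11) and 1190 bp (MRPL12), and no PHF20L1 peak. MRPL12 is also known to bind the mitochondrial RNA polymerase.

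For most bound MRP genes the peak lay on the gene's own start. The PHF20 peak covered the representative TSS in 48 of 54 pairs of gene and peak (88.9%), against 60.3% of such pairs over all protein-coding genes, and the PHF20L1 peak in 15 of 18 pairs (83.3%), against 51.0%. The median distance from peak centre to that TSS was 111.5 bp for PHF20 and 83.5 bp for PHF20L1, against 204 bp and 165 bp over all genes. The PHF20 peaks that did not cover it were those of MRPL18, MRPL36, MRPL38, MRPS9, MRPS12 and the narrower peak of MRPS24.

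MRPL36 was called only through a TSS other than the representative one. Its peak of 873 bp was centred at -1678 bp from the representative TSS, 94 bp from the nearest TSS of NDUFS6, a subunit of complex I, and 149 bp from the nearest TSS of MRPL36. For 8 other genes the PHF20 peak centre was also nearest the TSS of another protein-coding gene, namely MRPL2 (KLC4), MRPL9 (OAZ3), MRPL12 (ENSG00000262660), MRPL18 (TCP1), MRPL21 (IGHMBP2), MRPL27 (EME1), MRPL46 (MRPS11) and MRPS12 (SARS2). At MRPL18 the peak centre was 105 bp from the nearest TCP1 start and 345 bp from the nearest MRPL18 start, which was not the representative one. The PHF20L1 peak centre was nearest another gene at MRPL13 (MTBP), MRPL27 (EME1), MRPL30 (MITD1) and MRPS34 (EME2). SARS2 encodes the mitochondrial seryl-tRNA synthetase, so the shared MRPS12 region also serves mitochondrial translation. These peaks cannot be assigned to 1 of the paired genes from their positions.

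A gene was called divergent when the representative TSS of another protein-coding gene lay on the opposite strand at most 1000 bp upstream of its own representative TSS. This held for 26 MRP genes (33.3%), against 9.46% of all protein-coding genes. PHF20 peaks were at 15 of the 26 (57.7%) and at 38 of the other 52 MRP genes (73.1%). Over all protein-coding genes the order was the opposite, with 46.6% of divergent genes and 18.0% of the others. With any annotated TSS of either gene, which takes in such pairs as MRPS34 and EME2, 31 MRP genes (39.7%) were divergent, against 16.2% of all genes, and PHF20 peaks were at 19 of the 31 (61.3%) and 34 of the other 47 (72.3%). By representative TSSs, of the MRP genes without a peak, 11 were divergent (44%), against 28.6% of those with a PHF20 peak only and 27.8% of those with both. At divergent MRP genes the PHF20 peak centre lay upstream of the TSS, towards the partner gene, in 13 of 15 pairs. The median position was -106 bp, close to the -106.5 bp of all divergent protein-coding genes, where 607 of 940 pairs lay upstream. At the other MRP genes the centre lay downstream in 26 of 39 pairs, with a median of 80 bp. Among all protein-coding genes that were not divergent it lay downstream in 1776 of 3495 pairs, with a median of 6 bp.

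PHF20 peaks at MRP genes were wide for the list. The 53 distinct peaks had a median width of 957 bp (213 to 1543 bp, quartiles 731 and 1190 bp), against 635 bp for peaks at protein-coding promoters and 599 bp for the whole list. Of them, 32 (60.4%) were wider than 889 bp, the upper quartile of the list, against 27.2% of the PHF20 peaks at protein-coding promoters. MRPL and MRPS genes were alike in this measure, with medians of 968.5 and 960 bp. The PHF20 peaks were wider where PHF20L1 was also found, with a median of 1152 bp (731 to 1543 bp) against 926 bp (213 to 1524 bp) at MRP genes with a PHF20 peak only. The ranges of these classes overlapped. Over all protein-coding genes the corresponding medians were 946 and 573 bp. PHF20L1 peaks at MRP genes had a median of 336.5 bp (211 to 667 bp), close to the 323 bp of all PHF20L1 peaks at protein-coding promoters. The plot of peak widths sets each peak beside these medians. Width is the only measure of size in the lists and is not a measure of occupancy.

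**Figure D3:**
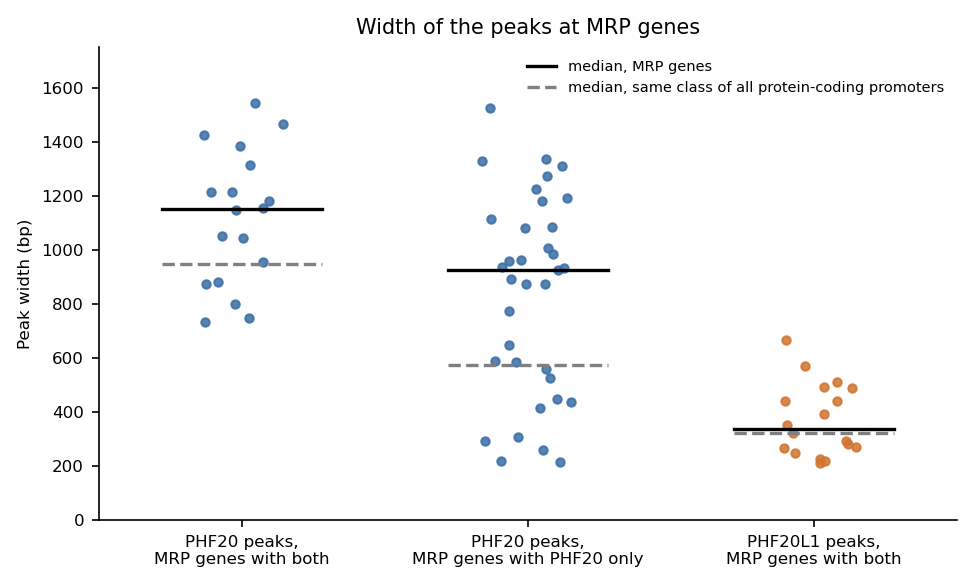
Width (bp) of each distinct peak at MRP genes, with 1 point per peak, for PHF20 peaks at genes with both proteins (n = 18), PHF20 peaks at genes with PHF20 only (n = 35) and PHF20L1 peaks (n = 18). Black lines are medians of the points (1152, 926 and 336.5 bp) and grey dashed lines the medians at protein-coding promoters of the same class (946, 573 and, for all PHF20L1 promoter peaks, 323 bp).

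The 25 MRP genes without a peak were MRPL14, MRPL17, MRPL22, MRPL23, MRPL24, MRPL28, MRPL32, MRPL34, MRPL35, MRPL37, MRPL41, MRPL43, MRPL45, MRPL47, MRPL49, MRPL50, MRPL52, MRPL54, MRPL57, MRPS6, MRPS17, MRPS18B, MRPS25, MRPS27 and MRPS36. No MRP gene had a peak within its body outside the promoter windows. In 3 cases a PHF20 peak lay less than 10000 bp from a TSS of the gene. The peak nearest MRPL35 was 3426 bp away at the promoter of IMMT, a protein that shapes the inner mitochondrial membrane. That nearest MRPL49 was 4401 bp away at ZNHIT2, and that nearest MRPL24 was 9104 bp away at ISG20L2 and METTL25B. For the other 22 genes the distance ran from 12623 bp (MRPS17) to 2174053 bp (MRPS18B), with a median of 85008 bp. None of the 25 genes was therefore just outside the promoter window. At MRPL45, 99.7% of the promoter windows aligned to another place on chromosome 17 at 96.9% identity, and the authors kept uniquely mapped reads. It was the only MRP gene with such a copy, and the effect of the copy on its call was not tested.

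The ETS sequence CCGGAAG is recognized by ETS factors, among them GABPA, which has long been tied to nuclear genes of mitochondrial function. It was found on either strand of the 300 bp promoter in 32 of 78 MRP genes (41.0%), against 14.1% of all protein-coding promoters and 19.1% of CpG-rich ones. By class it was in 10 of 18 promoters with both peaks (55.6%), 16 of 35 with a PHF20 peak only (45.7%) and 6 of 25 with no peak (24.0%). The shares over all protein-coding genes in these classes were 41.1%, 31.0% and 9.19%, so the order was that of all genes and each MRP share was higher. With both peaks these were MRPL27, MRPL30, MRPL40, MRPL48, MRPL53, MRPL58, MRPS18C, MRPS23, MRPS31 and MRPS34. With no peak they were MRPL23, MRPL28, MRPL43, MRPL47, MRPL52 and MRPL54, so that the sequence was also present at promoters outside both lists. MRPS34 and MRPS22 had 3 copies each.

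The 44 copies in these 32 promoters started between -222 and 19 bp from the TSS, with a median of -24 bp, and 36 of them started at or after -100 bp. In bound genes 34 of 37 copies lay inside the PHF20 peak. For the other sequences marked above the counts were 6 of 8 (YY1), 2 of 2 (NRF1) and 2 of 3 (E-box). Most PHF20 peaks at MRP genes covered the TSS and were wider than the 300 bp searched. Most sequences in that window would therefore lie inside a peak, and the count does not tie the ETS sequence to the peaks. The longer form ACTTCCGG, which contains the ETS sequence on the other strand and was counted separately, was in 12 MRP promoters (15.4%), against 6.14% of all. Its order by class differed, with 3 of 18 with both peaks (16.7%), 7 of 35 with a PHF20 peak only (20%) and 2 of 25 with no peak (8%). Over all protein-coding genes the shares in these classes were 23.3%, 15.0% and 3.44%, the order of the shorter sequence. Within 500 bp on either side of the TSS the ETS sequence was in 38 MRP genes (48.7%), against 22.4% of all genes.

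YY1, a factor that binds close to the TSS of many housekeeping genes, recognizes AAGATGGCG, which was in 13 MRP promoters (16.7%), against 2.84% of all and 3.84% of CpG-rich promoters. It was present in 1 of 18 promoters with both peaks (MRPS30), in 7 of 35 with a PHF20 peak only (20%; MRPL36, MRPL38, MRPL42, MRPL46, MRPS10, MRPS18A and MRPS24) and in 5 of 25 with no peak (20%; MRPL22, MRPL32, MRPL50, MRPL52 and MRPS18B). The classes thus did not follow the order seen for the ETS sequence. The MRP share with both peaks, 5.56%, was near the 5.09% of all protein-coding genes with both. In the other classes the shares over all protein-coding genes were 6.62% with a PHF20 peak only and 1.91% with no peak. The ZNF143 sequence ACTACAA was in 7 MRP promoters (8.97%), against 2.99% of all, and 4 of these had no peak (MRPL24, MRPL32, MRPL34 and MRPL50). The E-box was in 7 (8.97%), a share near the 8.76% of all promoters, and 4 of these also had no peak. The extended E-box CACGTGAC, part of the same count, was in 2 (2.56%), against 3.46%. The NRF1 sequence, bound by a regulator of nuclear genes of respiration, was in 4 (MRPL10, MRPL17, MRPL22 and MRPS18C; 5.13%), against 2.70%.

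The remaining sequences had shares near or below those of all promoters. GGGCGG, the core bound by SP factors, was in 60.3% of MRP promoters, against 61.3% of all and 83.1% of CpG-rich promoters. CCAAT, bound by NFY, was in 28.2%, against 36.1% of all and 34.0% of CpG-rich promoters. The CRE TGACGTCA was in 1 MRP promoter (MRPL4; 1.28% against 2.69%), TCTCGCGA in 2 (2.56% against 1.73%) and the ERR sequence TCAAGGTCA in none, against 0.185% of all. A match states only that these letters are in the window, and no binding of any of these factors was measured.

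**Figure D4:**
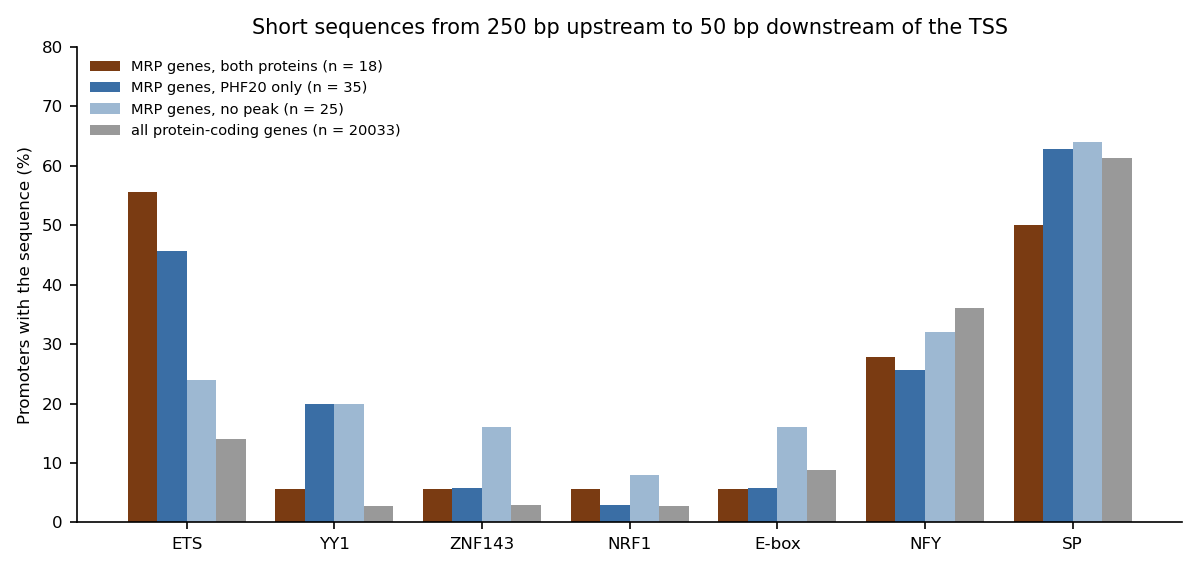
Share of promoters (%) with each of 7 short sequences on either strand of the 300 bp promoter, for MRP genes with both proteins, PHF20 only and no peak and for all protein-coding genes (grey). The ETS share falls from 55.6% over 45.7% to 24.0% across the MRP classes and is 14.1% in all genes, while YY1 is at 20% in MRP genes with PHF20 only and with no peak.

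Other genes of mitochondrial translation had peaks about as often as the MRP genes. In a list of 42, 29 (69.0%) had a PHF20 peak and 11 (26.2%) also a PHF20L1 peak. With 4 genes of mitochondrial transcription added, the counts were 31 (67.4%) and 12 (26.1%) of 46. A group of 6 held further proteins of the mitochondrial ribosome and OXA1L, a membrane insertase that binds it. Of these, AURKAIP1 (1097 bp), CHCHD1 (765 bp) and GADD45GIP1 (551 bp) had a PHF20 peak, and DAP3, PTCD3 and OXA1L had none. Of 12 translation factors 9 had a PHF20 peak. Those with both peaks were the elongation factors TSFM and GFM1 and the translational activator TACO1, which had a PHF20 peak of 1420 bp. The initiation factor MTIF2 (1371 bp), the elongation factor TUFM (437 bp), the release factor MTRF1 (670 bp), the recycling factors GFM2 (935 bp) and MRRF (799 bp) and the formyltransferase MTFMT (493 bp) had a PHF20 peak only. MTIF3, MTRF1L and MTRFR had none.

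The proteins that assemble the mitochondrial ribosome or modify its RNA had a PHF20 peak in 17 of 24 cases (70.8%) and both peaks in 8 (33.3%). Those with both were the GTPases ERAL1, MTG2 and GTPBP10, the RNA helicase DDX28, the methyltransferase NSUN4 with its partner MTERF4, the pseudouridine synthase TRUB2, and RCC1L. The widest PHF20 peak of the group was that of the GTPase NOA1, 1702 bp, which had no PHF20L1 peak. MTERF3, RBFA, MRM1, MRM2, TFB1M, RPUSD4 and MPV17L2 had no peak. Of the 4 proteins of mitochondrial transcription, TEFM had both peaks and TFB2M a PHF20 peak of 1028 bp, whereas the polymerase POLRMT and the packaging factor TFAM had none. For comparison, 43 of 86 cytosolic ribosomal protein genes (50%) had a PHF20 peak and 10 (11.6%) a PHF20L1 peak. They were taken by symbol, with paralogues included whether or not U2OS cells express them. For the NDUF genes, also taken by symbol, the counts were 24 of 48 (50%) and 4 (8.33%). Most of the NDUF genes encode subunits or assembly factors of complex I.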

How the data were processed

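HA ChIP-Seq of PHF20 and PHF20L1 in U2OS cells was analysed from the peak positions in bp that the authors deposited, in 1 final list per protein. According to the study's methods, reads were mapped to hg38, uniquely mapped reads without duplicates were kept, peaks were called against input and blacklisted regions were removed. A PHF20 replicate that failed peak calling was left out by the authors. The final lists hold peaks of the best replicate that overlapped peaks of the others. The paper states that the replicates kept differed in signal intensity. Peaks were called at a looser p-value threshold in the other replicates than in the best one. The submitters' processing notes name Bowtie 1.1.2 and MACS2 2.2.7.1. A required call in more than 1 library favours strong sites, and unique mapping leaves out reads from copied sequence. The depth of the libraries is unknown from the lists.

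Starts were counted from 1. Genes and TSSs were from GENCODE release 44, later than the authors' release, and sequence was read from hg38. The representative TSS was that of the MANE Select transcript or else the Ensembl canonical one. Peaks were compared with promoter windows of all transcripts, and 12 short sequences were searched on both strands. Window copies were found with minimap2 2.31-r1302. The tools were Python 3.11.15, pysam 0.24.0, numpy 2.4.6, matplotlib 3.10.9 and samtools 1.23.1, and the steps were tested on simulated data. Counts and medians were set beside those over all protein-coding genes, without tests. Columns of other samples were not present.

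The genes and lists were chosen with earlier results of these data known, and the CpG-rich comparison, divergence by any TSS and the sequences of MRPL27 and MRPS34 were added after the data were seen. Every MRP gene was named by its class. Coordinates were given for genes with both peaks and for the 6 widest and 4 narrowest PHF20-only genes, distances for genes without a peak, and neighbours where a call rested on another TSS or gene. Promoters were printed for the 3 widest genes with both peaks, the 2 widest with PHF20 only and the 2 farthest from a peak, leaving out chromosome 8.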

Additional observations from a re-analysis of the deposited data

How the results depend on the processing

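Of 64 alternatives planned for the counts, widths and sequences, 61 stayed within the spread or within 1.5 times the count reported, and 3 did not. All 3 came from dropping the peaks narrower than the list median. PHF20L1 peaks, and peaks of both proteins, were then at 10 MRP genes, and the small subunit genes with a PHF20L1 peak numbered 2. The PHF20L1 share was then 12.8% of MRP genes against 2.11% of all genes, and PHF20 remained at 42 MRP genes (53.8%) against 12.1%. When a peak counted only for the gene whose TSS was nearest its centre, PHF20 was at 44 MRP genes (56.4%) against 16.9% of all genes and PHF20L1 at 14 (17.9%) against 3.03%. With the representative TSS alone MRPL36 was lost, and with the outermost TSS alone MRPL11, MRPS2 and MRPS22 were lost.

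No paired analysis was possible because each list combines its replicates, and leaving out a replicate was not run for the same reason. The lists give neither depth nor height, so a weak site cannot be told apart from an absent one. PHF20 and PHF20L1 had different libraries, tags and list sizes, and a lower PHF20L1 count does not rank the proteins. Genes that share a promoter share its peak and are not independent. All libraries were of cells that overexpressed a tagged protein.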

Other observations

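In bacteria, 6 ribosomal proteins form a ring around the opening of the exit tunnel, and the MRP genes of their homologues are MRPL17, MRPL22, MRPL23, MRPL24, MRPL32 and MRPL47. None of these 6 genes had a peak of either protein, where 32.1% of MRP genes and 79.2% of all protein-coding genes had none. MRPL4, which lines the tunnel, is outside this group and had peaks of both proteins. The group of 6 was put together after the calls were known, and no test was made of it.

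EME1 and EME2 encode alternative partners of the nuclease MUS81. EME1 starts 45 bp from MRPL27 and EME2 close to MRPS34, and both pairs of genes lay under peaks of PHF20 and PHF20L1. The PHF20L1 peak centre was 41.5 bp from the nearest annotated EME1 start and 18.5 bp from that of EME2. Partners of MRP genes without a peak included TWNK, the helicase of mitochondrial DNA replication (46 bp from MRPL43), NDUFB5 of complex I (156 bp from MRPL47) and the RNA-binding protein gene PTCD2 (133 bp from MRPS27). These pairs were picked after their values were seen.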
